A study of Homo sapiens with 30 samples.

Results

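The serine/arginine-rich (SR) proteins and the heterogeneous nuclear ribonucleoproteins (hnRNPs) of HT29 cells were described across a vehicle group and 12 groups treated with herbal extracts. Members were the rows of the gene count table whose symbol is SRSF followed by digits only, or starts with HNRNP and belongs to a protein-coding gene. The rule gave 39 of 60675 genes, 12 SR proteins and 27 hnRNPs, and left out 136 pseudogenes of the same names. Of these, 34 genes (11 SR proteins and 23 hnRNPs) had enough reads to be tested. The other 5 were not tested: SRSF12 reached at most 0.14 counts per M (CPM), and HNRNPCL1, HNRNPCL2, HNRNPCL3 and HNRNPCL4 lay at or near 0 in every library.

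SR proteins bind exonic enhancer sequences in pre-mRNA through RNA recognition motifs and recruit the splicing machinery through a domain rich in arginine and serine, whose phosphorylation by the CLK and SRPK kinases sets their location and activity. The hnRNPs coat nascent transcripts, often oppose SR proteins at splice sites, and also act in export, translation and decay of mRNA. Many genes of both families regulate their own level through alternative exons that send the transcript to nonsense-mediated decay.

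HT29 is an established human colorectal adenocarcinoma cell line. Cells received vehicle or a 70% ethanol extract for 24 h, made from Soshiho-tang, Yijin-tang, Okbyeongpung-san or Soyo-san, multi-herb formulas of Korean traditional medicine, and the study set 3 doses of each formula against vehicle. The sample labels give the high, medium and low doses as 500, 100 and 20 µg/mL. The design text adds that an extract whose 20% inhibitory concentration was below the top dose was used at that concentration and at dilutions of it, so the doses may be lower than the labels state. Vehicle is 0.1% DMSO in the labels and 2% DMSO in the design text. Soshiho-tang and Yijin-tang had 3 libraries at each dose, Okbyeongpung-san 2, Soyo-san 1 and vehicle 3. The wortmannin control named in the design text was not analysed here. Whether replicates came from separate cultures is not stated, and all p-values refer only to the spread among these libraries, which may be technical.

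The 30 libraries held from 18.5 M to 36.2 M counts each, of which 9.06% to 13.9% were mitochondrial. Epithelial markers of the line were present (EPCAM 447 to 575 CPM, KRT8 5490 to 7510 CPM), whereas the intestinal factors CDX1 and CDX2 were low, at up to 1.21 and 4.91 CPM. Of 17 markers of immune cells, fibroblasts, endothelium, hepatocytes and neurons, 12 stayed at or below 0.314 CPM in every library, PTPRC, CD3E, COL1A2, CDH5 and ALB among them. The other 5 were present at low levels in every library, namely the macrophage markers CD68 (4.2 to 8.67 CPM) and CD14 (1.53 to 3.8), the fibroblast markers COL1A1 (0.743 to 2.51) and LUM (0.427 to 1.51) and the endothelial marker PECAM1 (0.749 to 2.08). Vehicle libraries carry names of a separate series from those of the extracts, and an effect of vehicle cannot be told apart from one of that series. Soyo-san and the third library of each Okbyeongpung-san dose carry batch D in their titles, and all others batch E, a term the labels leave undefined.

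The vehicle libraries differed from each other in the level of these genes, and library 1 was the lowest. The 23 tested hnRNPs summed to 9446 CPM in vehicle library 1 and to 10546 and 11000 CPM in the other 2 vehicle libraries. In the 27 extract libraries this sum lay between 9767 and 10607 CPM, above vehicle library 1 and below the highest vehicle library. The 11 tested SR proteins summed to between 2251 and 2486 CPM in vehicle, with library 1 again lowest, and to between 2382 and 2538 CPM in the extract libraries. Counts of called members against vehicle are therefore given with and without this library. A part of library composition in these differences was not tested.

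As a group, these genes varied little. The ratio of the highest to the lowest of the 13 group means had a median of 1.11 over the 34 tested members and ran from 1.03 to 1.26, against a median of 1.29 over all 15882 genes tested. Among genes of at least 50 CPM the medians were 1.11 for 31 members and 1.17 for 4296 genes. The widest member was HNRNPDL.

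**Figure D1:**
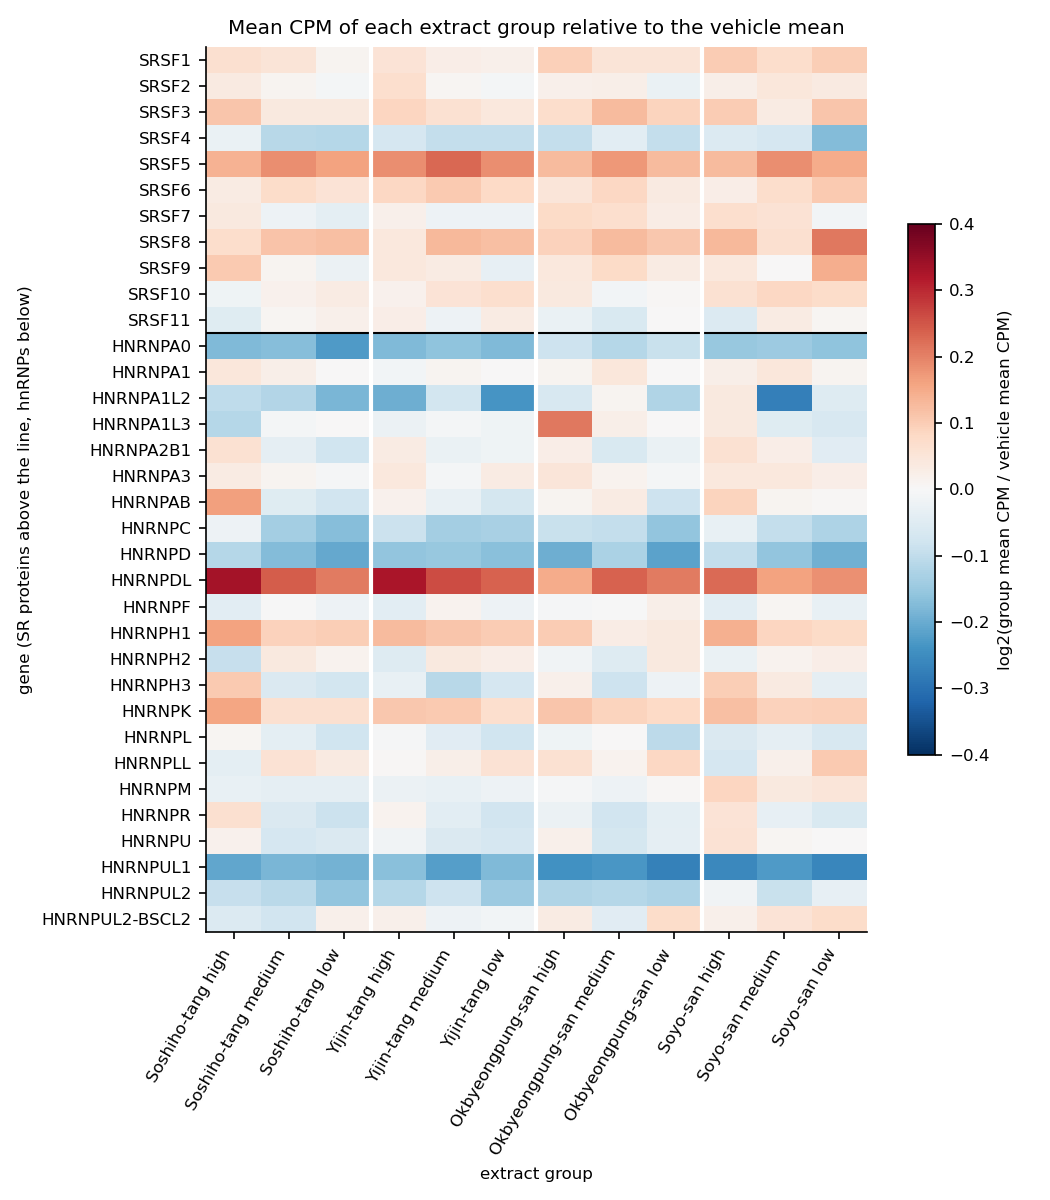
Each row is a tested member and each column an extract group; colour gives the log2 ratio of the group's mean CPM to the vehicle mean (3 vehicle libraries), red above and blue below. HNRNPDL and SRSF5 are red and HNRNPUL1 is blue in all 12 columns, and most other rows are pale.

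The first comparison set the mean of the 6 Soshiho-tang and Yijin-tang groups (18 libraries) against vehicle. HNRNPDL, SRSF5, SRSF8, HNRNPK, SRSF6 and SRSF3 were higher in extract-treated cells by 0.09 to 0.30 log2 units, and HNRNPUL1, HNRNPA0 and HNRNPUL2 were lower by 0.09 to 0.16. These 6 higher and 3 lower members were called at an adjusted p below 0.05 (edgeR quasi-likelihood test, Benjamini-Hochberg over all genes). Over all genes tested, 18.1% were called higher and 14.3% lower, and 32.4% in either direction, against 26.5% of the members. The members' median log2 fold change was 0.020, near the 0.003 of all genes, and their median size regardless of sign was 0.051, against 0.13 for all genes. For 29 of the 34 members the 95% interval of the difference lay within 0.25 log2 units of 0.

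Of the 11 SR proteins tested, 4 were higher, none was lower and 7 were not called. SRSF5, an SR protein with 2 RNA recognition motifs, lies at chr14:69726900-69772005 (GRCh38, plus strand), with 19 transcripts in GENCODE release 29. It measured 98.2, 117 and 115 CPM in the vehicle libraries and from 117 to 134 CPM (median 124) in the 18 Soshiho-tang and Yijin-tang libraries. Vehicle library 1 was well below the rest, and 25 of all 27 extract libraries lay above the highest vehicle library. The difference was 0.21 ± 0.044 log2 units (SE), with an adjusted p of 0.00068.

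SRSF8, a close relative of SRSF2, measured 49.9, 53.8 and 53.5 CPM in vehicle and from 51.9 to 59 CPM in the 18 libraries (median 56.6). The groups overlapped, and 24 of 27 extract libraries exceeded every vehicle library. It rose by 0.13 ± 0.035 log2 units (SE; adjusted p = 0.0055). SRSF6, a regulator of exon inclusion, measured 308, 326 and 321 CPM in vehicle and from 318 to 366 CPM (median 333) in the 18 libraries, a difference of 0.10 ± 0.031 (SE; adjusted p = 0.014). SRSF3, the smallest SR protein, measured 286, 311 and 293 CPM in vehicle and from 297 to 328 CPM (median 308), a difference of 0.09 ± 0.029 (SE; adjusted p = 0.014). Both overlapped vehicle and differed from it by little more than the spread of the vehicle libraries.

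The 7 SR proteins that were not called had log2 differences from -0.05 (SRSF4) to 0.07 (SRSF1). SRSF1, the founding member of the family, had a range of 387 to 425 CPM in the 18 libraries against 383 to 403 CPM in vehicle. SRSF2, a component of nuclear speckles, ranged from 351 to 394 CPM against 357 to 372 CPM. SRSF11 had the widest error of the SR proteins (0.03 ± 0.065 log2 units, SE), with vehicle libraries between 179 and 234 CPM.

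Of the 23 hnRNPs tested, 2 were higher, 3 were lower and 18 were not called. HNRNPDL, a paralog of the AU-rich element binding protein HNRNPD, lies at chr4:82422564-82430408 (GRCh38, minus strand), and 4 of its 10 annotated transcripts are of the nonsense-mediated decay type. It measured 192, 231 and 215 CPM in vehicle. The Soshiho-tang libraries held 274, 260 and 269 CPM at the high dose, 264, 249 and 242 CPM at the medium dose and 252, 244 and 242 CPM at the low dose. The Yijin-tang libraries held 270, 257 and 273 CPM at the high, 270, 249 and 246 CPM at the medium and 258, 249 and 247 CPM at the low dose. All 27 extract libraries lay above all 3 vehicle libraries, the only tested member for which these sets did not overlap, against 1.73% of all genes tested with every extract library above vehicle and 2.69% with every one below. The difference was 0.30 ± 0.040 log2 units (SE; adjusted p = 3e-06).

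HNRNPK, which binds C-rich sequences through KH domains, measured 673, 740 and 714 CPM in vehicle and from 731 to 801 CPM (median 750) in the 18 libraries. Low-dose Soshiho-tang libraries 1 and 2 and medium-dose Soshiho-tang library 2, at 737, 731 and 736 CPM, lay within the vehicle range, and 24 of 27 extract libraries exceeded it. The difference was 0.12 ± 0.028 log2 units (SE; adjusted p = 0.0011).

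HNRNPUL1, a relative of the scaffold attachment factor HNRNPU that binds RNA and transcription regulators, lies at chr19:41262496-41307598 (GRCh38, plus strand) and overlaps TGFB1 on the other strand. It measured 878, 785 and 907 CPM in vehicle and from 714 to 801 CPM (median 751) in the 18 libraries. Yijin-tang high-dose library 2, at 801 CPM, was the one extract library above the lowest vehicle library. It fell by 0.16 ± 0.035 log2 units (SE; adjusted p = 0.00069). HNRNPA0, which binds AU-rich elements, has 1 annotated transcript and measured 211, 189 and 197 CPM in vehicle against 162 to 195 CPM (median 174), lower in 24 of 27 extract libraries than in every vehicle library. It fell by 0.15 ± 0.043 (SE; adjusted p = 0.0072). HNRNPUL2 fell by 0.09 ± 0.029 (SE; adjusted p = 0.019), from 285 to 317 CPM in vehicle to 266 to 291 CPM. Its locus overlaps the readthrough gene HNRNPUL2-BSCL2 on the same strand, so the division of reads between the pair is uncertain, and the readthrough row differed by 0.00 ± 0.045.

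HNRNPH1, which binds G-rich sequences, missed the threshold at 0.14 ± 0.054 log2 units (SE; adjusted p = 0.050). Among the abundant hnRNPs, HNRNPA1 differed by 0.05 ± 0.035 (SE), HNRNPA2B1 by 0.02 ± 0.043, HNRNPU by -0.01 ± 0.032 and HNRNPM by 0.00 ± 0.026, none of them called. HNRNPA1L2 and HNRNPA1L3 are near-identical in sequence to HNRNPA1, so their low counts are uncertain.

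**Figure D2:**
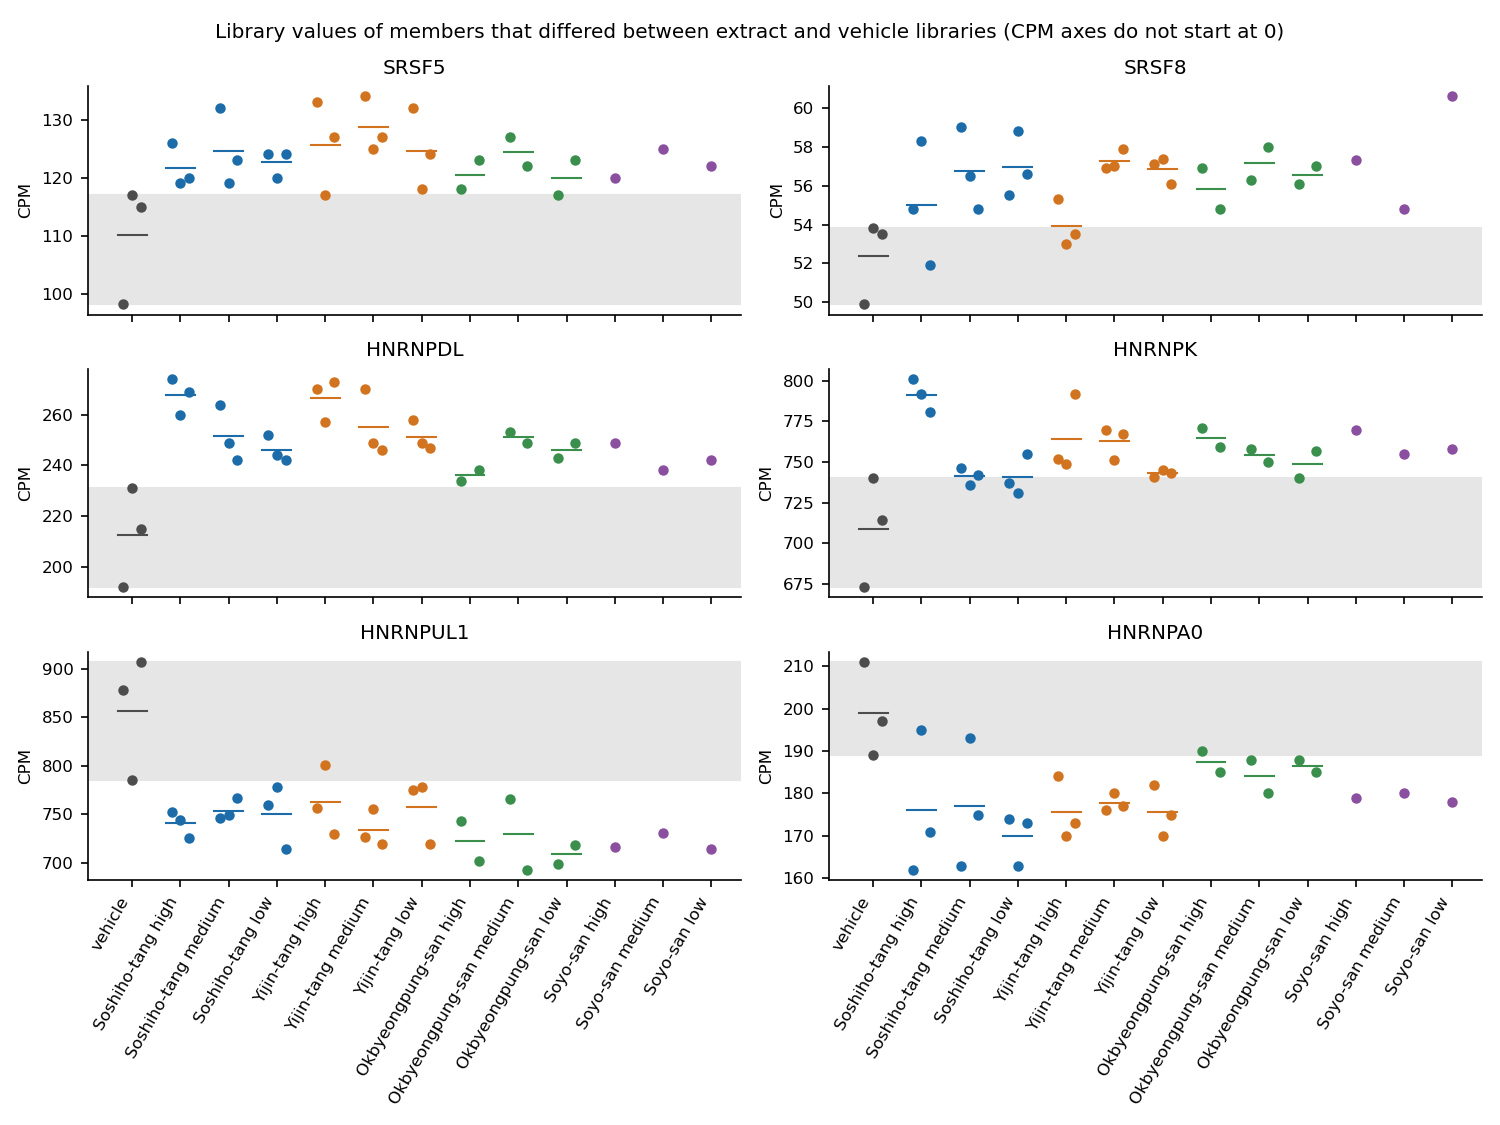
Points are CPM in single libraries for 6 members called in the comparison of the extract mean with vehicle, bars are means of groups with at least 2 libraries, and the grey band spans the 3 vehicle libraries. HNRNPDL lies above the band in all 27 extract libraries, and HNRNPUL1 below it in 26 of 27.

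These differences depended on which vehicle libraries were kept. Without vehicle library 1, 3 members were higher, HNRNPDL (0.21), SRSF5 (0.12) and HNRNPK (0.07), and 10 were lower (13.9% and 15.1% of all genes). The 10 were HNRNPD (-0.28), HNRNPA1L2 (-0.24), HNRNPC (-0.19), HNRNPUL1 (-0.16), HNRNPUL2 (-0.14), SRSF4 (-0.13), HNRNPH3 (-0.12), HNRNPR (-0.11), HNRNPA2B1 (-0.09) and HNRNPU (-0.09). HNRNPD, which directs the decay of mRNAs with AU-rich elements, measured 304, 386 and 444 CPM in the vehicle libraries and from 317 to 357 CPM in the 18 extract libraries, between the lowest and the other vehicle values. HNRNPC, which binds U-rich tracts, measured 575, 691 and 732 CPM in vehicle and from 583 to 662 CPM. Vehicle library 3 held the highest value of both genes. Without that library HNRNPD differed by -0.02 and HNRNPC by -0.03, neither called. SRSF3, SRSF6, SRSF8 and HNRNPA0 were no longer called without vehicle library 1. Without vehicle library 2 the counts were 7 higher and 3 lower (16.8% and 16.8% of all genes), and without vehicle library 3 they were 4 higher and 2 lower (12% and 11%). HNRNPDL, SRSF5, HNRNPK and HNRNPUL1 were called under all 27 alternatives run for this comparison.

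**Figure D3:**
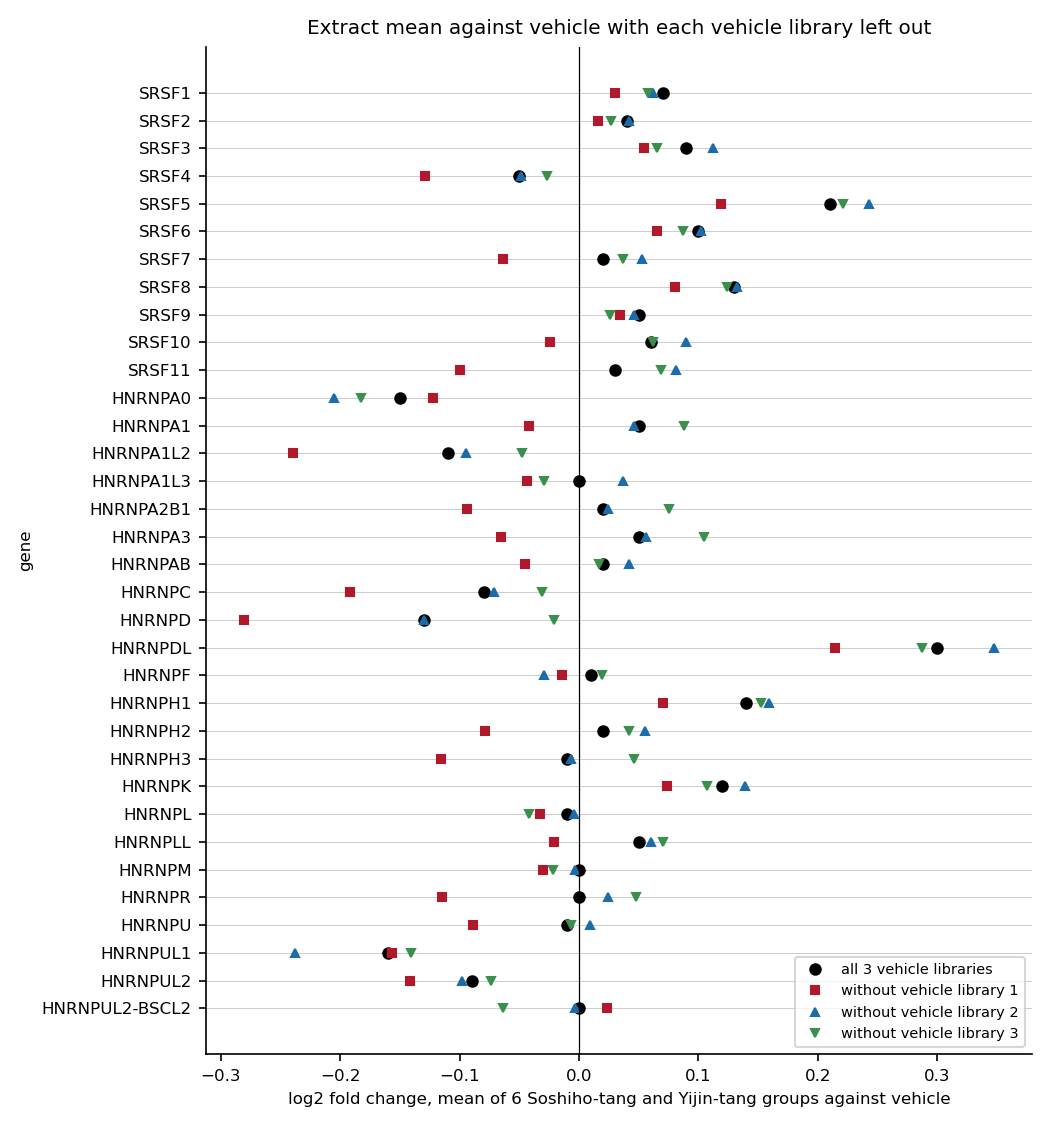
Each row is a member, and markers give the log2 fold change of the extract mean against vehicle with all 3 vehicle libraries and with each left out. The red squares (without library 1) lie to the left for most members. HNRNPDL, SRSF5, HNRNPK and HNRNPUL1 keep their side of 0 under all 4 settings, as do others, such as SRSF3 and HNRNPA0, that lost their call without library 1.

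Single doses were also compared with vehicle. These comparisons share the vehicle libraries, and the extract mean is made of the same dose groups. At the high dose of Soshiho-tang 7 members were higher and 2 lower (all genes 21% and 18.3%). HNRNPDL was 0.36, HNRNPAB 0.19, HNRNPH1 0.19, HNRNPK 0.18, SRSF5 0.17, SRSF3 0.14 and SRSF9 0.13 log2 units above vehicle, and HNRNPUL1 was 0.18 and HNRNPA0 0.15 below it. HNRNPDL, HNRNPAB, HNRNPK and HNRNPUL1 were called under all 13 alternatives. The call was lost under 7 of them for HNRNPH1, 6 for HNRNPA0, 5 for SRSF9, 4 for SRSF5 and 1 for SRSF3. At the medium dose 3 were higher and 1 lower (11.1% and 7.05%), and at the low dose 3 were higher and 4 lower (10.6% and 6.34%). The low-dose falls were HNRNPA0 (-0.20), HNRNPUL1 (-0.16), HNRNPC (-0.14) and HNRNPUL2 (-0.13). The HNRNPC call was close to the threshold and was lost under 8 of 13 alternatives. Without vehicle library 1 the high dose gave 5 higher and 5 lower (all genes 18.2% and 19.2%), the medium dose 1 higher and 9 lower (9.77% and 10.2%), and the low dose 1 higher and 11 lower (9.4% and 9.82%).

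For Yijin-tang, 5 members were higher and 1 lower at the high dose (all genes 12.7% and 8.39%), 5 higher and 1 lower at the medium dose (11.1% and 7.37%), and 3 higher and 2 lower at the low dose (10.3% and 6.66%). HNRNPDL was 0.36, 0.29 and 0.27 log2 units above vehicle at the high, medium and low dose, and SRSF5 was 0.22, 0.25 and 0.21 above it. HNRNPUL1 was 0.14, 0.19 and 0.15 below vehicle. Without vehicle library 1 the Yijin-tang counts became 2 higher and 6 lower at the high dose (all genes 10.4% and 11%), 2 higher and 10 lower at the medium dose (9.27% and 10.6%), and 1 higher and 10 lower at the low dose (9.45% and 10.1%).

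High against low dose of a formula uses no vehicle library in the contrast. For Soshiho-tang, HNRNPAB, HNRNPH3, HNRNPC, HNRNPR and SRSF9 were higher at 500 than at 20 µg/mL and no member was lower. These 5 and 0 members compare with 13.3% higher and 13.5% lower over all genes, and the share called in either direction was 14.7% of members and 26.8% of all genes. The median over members was 0.057 log2 units, against -0.008 for all genes, and 23 of 34 were above 0.

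HNRNPAB, an A/B-type hnRNP known to bind the RNA-editing enzyme APOBEC1, lies at chr5:178204507-178211163 (GRCh38, plus strand) and overlaps PHYKPL on the other strand. It measured 391, 404 and 400 CPM at the high dose, 335, 342 and 351 CPM at the medium dose and 340, 330 and 341 CPM at the low dose. The high-dose libraries were separate from all others of the formula, and medium and low doses overlapped. The difference between high and low dose was 0.24 ± 0.040 log2 units (SE; adjusted p = 4.4e-05), and it was called under all 13 alternatives.

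HNRNPH3, a small relative of HNRNPH1, measured 221, 217 and 207 CPM at the high and 192, 186 and 192 CPM at the low dose (0.18 ± 0.057 log2 units, SE; adjusted p = 0.022). HNRNPC measured 662, 650 and 656 CPM at the high and 600, 583 and 592 CPM at the low dose (0.15 ± 0.051, SE; adjusted p = 0.030). HNRNPR, which associates with transcripts in the nucleus and in neuronal axons, measured 327, 323 and 319 CPM at the high and 292, 287 and 293 CPM at the low dose (0.15 ± 0.053, SE; adjusted p = 0.035). In these 3 genes no high-dose library overlapped a low-dose one. Like HNRNPAB, they were picked as called in this same comparison, so the separation adds no further support. The share of all genes so separated is not given. SRSF9 measured 138, 147 and 137 CPM at the high and 129, 121 and 136 CPM at the low dose (0.13 ± 0.043, SE; adjusted p = 0.026), and the lowest high-dose value lay just above the highest low-dose one. The count of higher members ranged from 1 to 4 when single libraries were left out. It was 1 without low-dose library 2, 2 without high-dose library 1, and 3 without low-dose library 1, high-dose library 2 or high-dose library 3. With library totals in place of TMM scaling only HNRNPAB was called higher. Of 13 alternatives, the call was lost under 7 for HNRNPR, 5 for HNRNPC, 4 for SRSF9 and 3 for HNRNPH3. For HNRNPR it was lost whenever any single high-dose or low-dose library was left out. The share of all genes is not given under these settings.

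For Yijin-tang, no member was called between high and low dose, against 0.724% higher, 1.13% lower and 1.86% in either direction over all genes. At an unadjusted p below 0.05 there were 3 members, SRSF2, HNRNPAB and HNRNPL. No share of all genes is given at that threshold, so this count cannot be set against the shares above. HNRNPAB measured 360, 344 and 372 CPM at the high and 333, 347 and 333 CPM at the low dose, a difference of 0.09 ± 0.040 log2 units (SE; adjusted p = 0.34) with overlapping libraries. For 33 of 34 members the 95% interval lay within 0.25 log2 units of 0. The difference in dose change between the formulas was called for no member (all genes 2.15% positive, 2.42% negative and 4.58% in either direction). It was 0.15 ± 0.057 for HNRNPAB (SE; adjusted p = 0.16), the 1 member with an unadjusted p below 0.05, so the dose change of HNRNPAB was not shown to differ between Soshiho-tang and Yijin-tang.

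**Figure D4:**
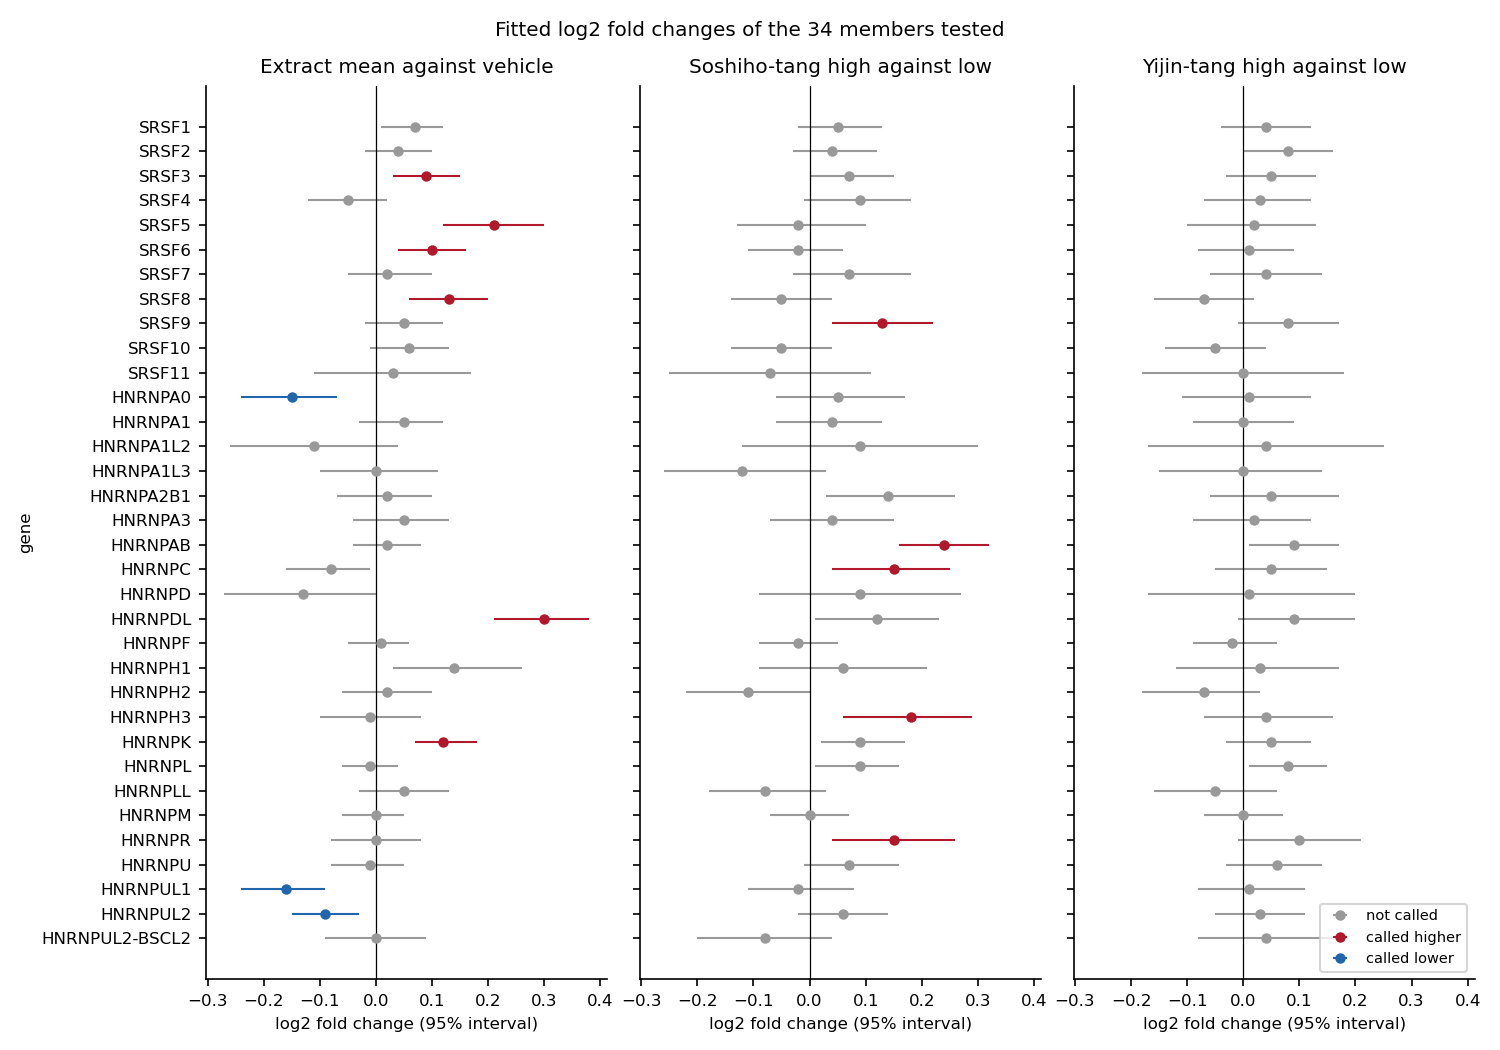
Points are fitted log2 fold changes of the 34 tested members with 95% intervals in 3 comparisons, coloured where called. The extract mean has members called on both sides, Soshiho-tang high against low has 5 called higher, and Yijin-tang high against low has none.

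**Figure D5:**
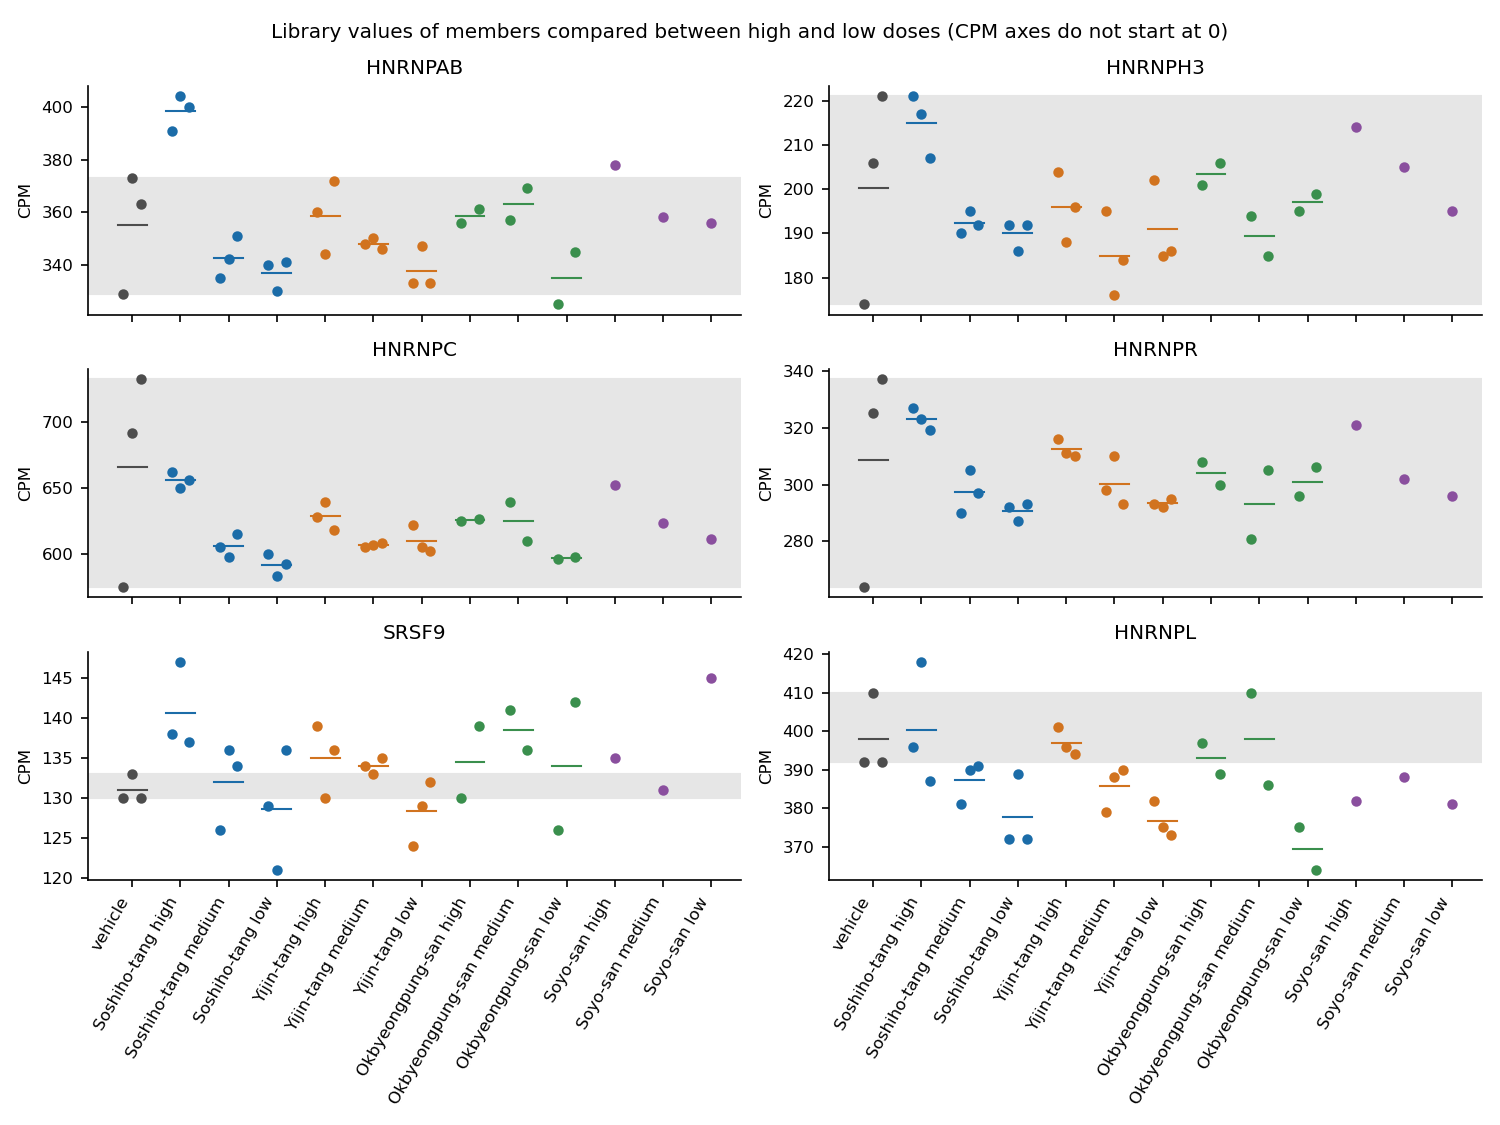
Points are CPM in single libraries for the 5 members called between Soshiho-tang doses and for HNRNPL, bars are means of groups with at least 2 libraries, and the grey band spans vehicle. The HNRNPAB values of the 3 high-dose Soshiho-tang libraries (391 to 404 CPM) lie above the vehicle range of 329 to 373 CPM.

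The promoters of 3 members are shown as context for the largest differences above: SRSF5 and HNRNPDL against vehicle, and HNRNPAB between Soshiho-tang doses. Each run is the 250 bases before a RefSeq transcription start on GRCh38.p14, at chr14:69766892-69767141 (plus strand), chr4:82430463-82430712 (minus strand) and chr5:178204283-178204532 (plus strand), taking the start nearest to the gene's 5′ end in GENCODE where several are listed. Capitals mark matches, on either strand, to GCGTG (core of the element bound by the aryl hydrocarbon receptor), TGACNNNGC (core of the antioxidant response element), CCGGAA (core of ETS sites), TGACG (a part of the cyclic AMP response element) and CCAAT, where TGACG and TGACNNNGC can overlap.
SRSF5: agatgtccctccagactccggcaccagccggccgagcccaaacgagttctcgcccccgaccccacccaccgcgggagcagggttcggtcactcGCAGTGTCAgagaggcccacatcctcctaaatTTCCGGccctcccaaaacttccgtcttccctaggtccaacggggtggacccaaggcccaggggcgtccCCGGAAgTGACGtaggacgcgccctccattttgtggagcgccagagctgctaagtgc
HNRNPDL: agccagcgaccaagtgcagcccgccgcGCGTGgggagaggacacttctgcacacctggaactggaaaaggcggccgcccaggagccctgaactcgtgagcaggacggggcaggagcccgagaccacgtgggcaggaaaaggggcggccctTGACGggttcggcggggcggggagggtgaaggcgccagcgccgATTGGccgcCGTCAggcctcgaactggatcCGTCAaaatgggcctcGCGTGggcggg
HNRNPAB: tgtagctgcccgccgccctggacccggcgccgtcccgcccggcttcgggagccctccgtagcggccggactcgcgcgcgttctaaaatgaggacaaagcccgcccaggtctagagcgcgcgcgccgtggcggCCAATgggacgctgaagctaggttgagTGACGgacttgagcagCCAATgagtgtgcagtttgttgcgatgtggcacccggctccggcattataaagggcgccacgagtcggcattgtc

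The SRSF5 window held 2 matches to CCGGAA, 1 to TGACNNNGC and 1 to TGACG, and none to GCGTG or CCAAT. The HNRNPDL window held 2 matches to GCGTG, 3 to TGACG and 1 to CCAAT, and the HNRNPAB window 1 to TGACG and 2 to CCAAT. RefSeq windows were found for 31 of the 34 tested members, 45 windows in all. GCGTG was present in 60% of these windows and in 32.2% of all 35116 windows, TGACG in 44.4% and 21.2%, CCAAT in 48.9% and 32%, CCGGAA in 17.8% and 14.5%, and TGACNNNGC in 11.1% and 10.9%. The median GC content was 64.8% in the members' windows and 58% in all windows, and its part in these shares was not tested. CCAAT was found for 17 of 21 hnRNPs and 2 of 10 SR proteins.

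Okbyeongpung-san was fitted with vehicle alone, where the spread was larger, and no member was called at the high, medium or low dose against vehicle or between high and low dose. Over all genes the called share was 4.38% at the high dose (2.19% higher, 2.19% lower), 0.108% at the medium dose (0.0444% and 0.0634%), 0.273% at the low dose (0.14% and 0.133%) and 0.558% between high and low dose (0.247% and 0.311%). At an unadjusted p below 0.05 there were 2, 5, 2 and 0 members, in the same order. The share of all genes at that unadjusted threshold is not given, so these counts cannot be set against the shares above. HNRNPDL measured 234 and 238 CPM at the high, 253 and 249 CPM at the medium and 243 and 249 CPM at the low dose, all above vehicle, with differences of 0.17 ± 0.074, 0.26 ± 0.074 and 0.23 ± 0.074 log2 units (SE; adjusted p 0.19, 0.16 and 0.12). HNRNPUL1 measured 743 and 702 CPM, 766 and 693 CPM, and 699 and 719 CPM, all below vehicle, with differences of -0.22, -0.21 and -0.25. When all 27 replicated libraries shared a fit, HNRNPDL (0.17, 0.25 and 0.23) and HNRNPUL1 (-0.22, -0.22 and -0.25) were called at all 3 doses. Without vehicle library 1, HNRNPD was called lower at the high dose (all genes 3.81% higher and 4.47% lower), no member at the medium dose (0.395% and 0.893%), and HNRNPC and HNRNPD lower at the low dose (1.81% and 3.22%). HNRNPA1L3 measured 17.3 and 25.3 CPM at the high dose, the second value above all other libraries.

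Soyo-san had 1 library at each dose and no test. No member differed by more than 0.32 log2 units, the size set for a call here, between the high-dose library and the vehicle mean, against 7.95% of genes higher and 14.4% lower, or between high and low dose, against 6.92% and 12%. Without vehicle library 1, a setting chosen after seeing the data, no member passed that size either (all genes 8.63% and 14.4%). HNRNPDL measured 249, 238 and 242 CPM at the high, medium and low dose, and HNRNPUL1 measured 716, 731 and 714 CPM. Both lay outside the vehicle range on the same side as with the other formulas. HNRNPM measured 291 to 304 CPM in vehicle and up to 301 CPM in the 18 libraries, and lay between 305 and 315 CPM in the Soyo-san libraries. In the Okbyeongpung-san libraries of batch D it measured 305 CPM at the high, 287 CPM at the medium and 299 CPM at the low dose.

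GENCODE lists a transcript of the nonsense-mediated decay type for all 11 tested SR proteins and for 14 of 23 hnRNPs (60.9%), against 43.5% of 12652 protein-coding genes tested. A retained-intron transcript is listed for 8 of the 11 SR proteins (72.7%), 14 of 23 hnRNPs (60.9%) and 57.1% of protein-coding genes. The counts sum all transcripts of a gene, so a shift between productive and decayed transcripts was not measured.

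Among the kinases and import factors that act on SR proteins, CLK1 and CLK4 had larger differences from vehicle than any SR protein or hnRNP. Of 13 genes in this list, 5 were higher and 2 lower in the extract mean against vehicle. CLK1, a kinase of SR proteins, measured 30.3, 35.1 and 32.9 CPM in vehicle and from 52.1 to 63.3 CPM (median 58.3) in the 18 libraries, and exceeded vehicle in 27 of 27 extract libraries. It rose by 0.86 ± 0.056 log2 units (SE), or 1.82-fold (adjusted p = 2.3e-10), and by 0.69 ± 0.078 at the high dose of Okbyeongpung-san (SE; adjusted p = 0.0005). CLK4 measured 8.57, 10.1 and 10.3 CPM in vehicle and from 10.8 to 15.1 CPM, a rise of 0.52 ± 0.067 (SE; adjusted p = 1.4e-06). CLK2 (0.05) and CLK3 (0.08) were not called. SRPK1, a cytoplasmic SR kinase, rose by 0.10 ± 0.031 (SE; adjusted p = 0.021) and was called under 10 of 27 alternatives, PRPF4B rose by 0.17 ± 0.046 (SE; adjusted p = 0.0055), and SRPK2 (0.01) and the import receptor TNPO3 (0.01) were not called. Between Soshiho-tang doses, TNPO3 (0.13) and SRPK1 (0.11) were higher at the high dose, and CLK1 differed by -0.04 ± 0.067 (SE; adjusted p = 0.71).

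Of 31 SR-related proteins, 10 were higher and 7 lower against vehicle. RSRP1 rose by 0.35 and BCLAF1, a factor linked to apoptosis and RNA processing, by 0.23, and SCAF1 fell by 0.21, below vehicle in 27 of 27 extract libraries. Between Soshiho-tang doses 1 of them was higher (BCLAF1, 0.17) and 2 were lower (RSRP1, -0.29, and NKTR, -0.15). Of 34 tested hnRNP relatives that carry other names, 12 were higher and 8 lower against vehicle. PTBP3, a polypyrimidine tract binding protein, rose by 0.27, and the muscleblind genes MBNL3 and MBNL1 by 0.33 and 0.26. Between Soshiho-tang doses 5 were higher, among them PTBP3 (0.15) and DAZAP1 (0.15), and 4 were lower, among them MSI2 (-0.29), TIA1 (-0.24) and MBNL3 (-0.17).

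Of 56 core spliceosome genes, 7 were higher and 12 lower against vehicle. SNRNP70 and SNRPA, proteins of the U1 particle, fell by 0.26 and 0.21 and lay below vehicle in 27 of 27 extract libraries, and the helicase DHX15 rose by 0.18. Between Soshiho-tang doses 11 were higher and none lower, among them SNRPA1 (0.29), PRPF4 (0.24) and DHX15 (0.13). Of 15 genes of nonsense-mediated decay and the exon junction complex, 1 was higher against vehicle, the kinase SMG1 (0.45 ± 0.032, SE). Between Soshiho-tang doses MAGOHB (0.30), EIF4A3 (0.20) and SMG1 (0.19) were higher. The shares called were 53.8%, 54.8%, 58.8%, 33.9% and 6.67% of these 5 lists in the order given, against 32.4% of all genes and 26.5% of the SR proteins and hnRNPs. Without vehicle library 1 the 5 lists had 3 higher and 3 lower, 10 and 11, 8 and 9, 7 and 24, and 1 and 5 genes. Under this setting 13.9% of all genes were higher and 15.1% lower. The shares of the lists called in either direction were 46.2%, 67.7%, 50%, 55.4% and 40%, against 38.2% of the SR proteins and hnRNPs. CLK1 (0.80), CLK4 (0.42), SMG1 (0.42) and SNRNP70 (-0.31) remained called, and SRPK1 (0.05) and PRPF4B (0.06) did not. Between Soshiho-tang doses the shares called were 15.4%, 9.68%, 26.5%, 19.6% and 20% of the lists, against 26.8% of all genes (13.3% higher, 13.5% lower). Between Yijin-tang doses none of the 5 lists had a called gene. At an unadjusted p below 0.05 they had 1, 0, 2, 5 and 1, without a share of all genes at that threshold to set beside them.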

How the data were processed

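RNA of 30 HT29 libraries was sequenced as 100 bp paired-end reads from a strand-specific kit, per the labels' protocols. The authors deposited 1 table of expected counts, 1 row per gene, without normalisation. The submitters' processing notes name RSEM 1.3.3, STAR 2.7.3a, Trim Galore 0.6.5, FastQC 0.11.9 and the build GRCh38 (hg38). The annotation release and the strand setting are not given in the sources used here. RSEM divides reads between similar sequences, so paralogs and overlapping genes are less certain. A further 30 unnamed columns held no values and were not used.

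Expected counts were rounded to whole numbers. Of 60675 gene identifiers, 57055 were found in GENCODE release 29, which gave coordinates, overlaps and transcript types. Tests used edgeR 4.0.16 in R 4.3.3 (filterByExpr, TMM scaling, robust quasi-likelihood F-test). Vehicle, Soshiho-tang and Yijin-tang shared a fit (21 libraries, 15882 genes, biological coefficient of variation 4.71%), and vehicle and Okbyeongpung-san another (9 libraries, 15762 genes, 7.03%). P-values were adjusted by the Benjamini-Hochberg method over all genes of a comparison, and a gene is called at an adjusted p below 0.05. SEs are derived from the F statistic. CPM are TMM-scaled. Soyo-san was compared on log2 CPM with a prior count of 2 and no test, and a difference above 0.32 log2 units was called. The test was also run on simulated data in which every library had the same spread. The real vehicle libraries varied more than those of Soshiho-tang and Yijin-tang, so that run does not check error rates against vehicle. Alternatives were DESeq2 1.42.0, library totals in place of TMM, no filter on low counts, only the compared groups, 27 libraries in 1 fit, a replicate block and leaving out each library.

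Values in every library are given for the called members with the smallest adjusted p: 8 against vehicle and up to 6 between doses of a formula. Up to 3 called genes of each other list were named by the same rule, CLK1 to CLK4, SRPK1 and SRPK2 always. The members and lists were chosen with earlier results of these data known, and genes named outside the rule were chosen after their values were seen. Replicates within a group differed by more than sampling noise. The chi-square per degree of freedom between 2 libraries of a group was 11.2 to 20.6 for vehicle and 2.41 to 7.02 for Soshiho-tang and Yijin-tang. For Okbyeongpung-san it was 2.73 at the high, 10.4 at the medium and 2.49 at the low dose, each between a batch E and a batch D library. Most libraries of the shared fit are extract libraries, so its SEs, intervals and p-values against vehicle may be too small. Promoter sequences are from RefSeq, GRCh38.p14.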

Additional observations from a re-analysis of the deposited data

Results flagged for a closer look

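MSI2, an RNA-binding protein among the hnRNP relatives, was the 1 gene of the lists whose change between high and low dose was called different between the formulas: the Soshiho-tang change minus the Yijin-tang change was -0.19 log2 units by the interaction term of the edgeR fit, and no SR protein or hnRNP passed that test. The share called was 2.94% of the tested hnRNP relatives, below the 4.58% of all genes (2.15% positive, 2.42% negative).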

How the results depend on the processing

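Of 51 called member differences, 10 were called under every alternative run and none changed direction. Among differences that were not called, 91 were called under at least 1 alternative. Leaving out vehicle library 1 turned many that were not called into called falls. In the extract mean 10 members were then lower, against 3 with all libraries, and lower members also became more frequent at single doses. Among these falls were the following, each the lower end of its range over left-out libraries: HNRNPA2B1 in the extract mean (-0.094 to 0.075) and at medium-dose Yijin-tang (-0.108 to 0.063), HNRNPC at high-dose Soshiho-tang (-0.105 to 0.058) and HNRNPA3 at medium-dose Yijin-tang (-0.090 to 0.080). The cause was not tested. Members higher and lower in the extract mean ranged from 3 to 7 and 2 to 10 when single libraries were left out.

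Leaving out single libraries, members higher and lower than vehicle ranged from 5 to 9 and 1 to 5 at the high, 1 to 4 and 0 to 9 at the medium and 1 to 4 and 1 to 11 at the low dose of Soshiho-tang. They ranged from 2 to 4 and 0 to 6 at the high, 2 to 7 and 1 to 10 at the medium and 1 to 5 and 0 to 10 at the low dose of Yijin-tang. For Okbyeongpung-san they ranged from 0 to 1 and 0 to 1 at the high dose, 0 to 1 (higher) at the medium dose and 0 to 1 and 0 to 2 at the low dose. Members higher at high than at low dose of Soshiho-tang ranged from 1 to 4.

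Fitting only the compared groups leaves fewer libraries to estimate the spread, and against vehicle it gives the more variable vehicle libraries more weight. It gave 3 higher and 1 lower at high-dose Soshiho-tang, 0 and 0 at its medium and low doses, 1 and 0 at high-dose Yijin-tang and 0 and 0 at its other doses. It gave 8 higher and 1 lower for Soshiho-tang high against low, and 1 higher for Yijin-tang high against low. With all 27 replicated libraries in 1 fit there were 2 lower at high-dose Yijin-tang, and 2 higher and 1 lower, 3 higher and 1 lower, and 1 higher and 1 lower at the high, medium and low dose of Okbyeongpung-san. DESeq2 called 8 higher for Soshiho-tang high against low, 2 lower at high-dose Yijin-tang, and 1 lower each at the high and low dose of Okbyeongpung-san. Library totals gave 1 lower at high-dose, 5 higher at medium-dose and 1 lower at low-dose Soshiho-tang, 1 higher and 1 lower between its high and low doses, and 5 higher and 1 lower at low-dose Yijin-tang. Without a filter on low counts there were 3 lower at medium-dose Soshiho-tang, 3 higher and 2 lower at high-dose, 2 higher and 3 lower at medium-dose and 4 lower at low-dose Yijin-tang, and 1 lower at low-dose Okbyeongpung-san. The share of all genes called is not given for these alternatives, the replicate block or most fits with a library left out. Their counts show how stable the member calls were and cannot be set against all genes.

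Deviations of same-numbered libraries correlated by -0.08 to 0.09 over expressed genes, between each dose and vehicle and between high and low dose of a formula. Replicate numbers were therefore not taken to pair samples, although between high and low Yijin-tang every library correlated best with its own number. A replicate block gave 7 higher and 3 lower in the extract mean, 1 lower at high-dose Soshiho-tang, and 1 lower each at the high and low dose of Okbyeongpung-san, and its other counts stayed within 1.5 times those without it. Soyo-san, with 1 library per dose, has no replicate check. Members that were not called may still differ, by amounts within their intervals.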

Other observations

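In the extract libraries of Soshiho-tang and Yijin-tang, libraries that carry the replicate number 1 had the highest level of their group in all 6 groups for 3 of the 34 tested members, SRSF5, SRSF11 and HNRNPH1, and no member was highest in all 6 groups in replicate 2 or 3. The share of all genes with this pattern is not given, so the count does not set these members apart from other genes. For HNRNPH1 they measured 468, 445 and 452 CPM at the high, medium and low dose of Soshiho-tang and 466, 461 and 448 CPM at those of Yijin-tang. The other 12 libraries lay between 396 and 430 CPM, and vehicle library 1, at 360 CPM, was the lowest of its group. SRSF11 measured 222, 232 and 231 CPM in the replicate 1 libraries of Soshiho-tang at the high, medium and low dose and 226, 224 and 234 CPM in those of Yijin-tang, and SRSF5 measured 126, 132, 124, 133, 134 and 132 CPM in the same order. Vehicle library 1 was the lowest of its group for both. Over all expressed genes, the deviations of same-numbered libraries from their group means correlated by at most 0.09 between a dose and vehicle or between high and low dose of a formula. Same-numbered libraries of Soshiho-tang and Yijin-tang were not compared in this way, so an effect of replicate number shared by the 6 groups was not examined. HNRNPH1 has 50 annotated transcripts, 16 of them of the retained-intron type. This was noticed after the values were seen and was not tested.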
